A study of Canis lupus familiaris with 9 samples.

Results

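Mitochondrial ribosomal proteins build the ribosome that works inside mitochondria, and their transcripts were compared in muscle of dogs with unrestricted access to food and of dogs fed to keep their weight. The members are all genes whose only symbol in the array annotation starts with MRPL (large subunit) or MRPS (small subunit) followed by a digit, each read by the probe set with the highest mean over the 9 arrays. This gave 73 genes of 15115 named ones, 47 MRPL and 26 MRPS. The ad libitum group held 5 intact female beagles (animals 2, 5, 6, 7 and 8) and the control group, fed to hold baseline weight, held 4 (animals 1, 3, 4 and 9). All were 4 years old, ate the same diet, and gave skeletal muscle after 24 weeks and an overnight fast. Each dog was 1 Affymetrix canine array, the labels do not name the muscle, and dogs are separate animals, so the spread is between animals.

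The mitochondrial ribosome makes the few proteins that mitochondrial DNA encodes, all of them core parts of the respiratory chain and ATP synthase. Its RNAs come from mitochondrial DNA, while every protein of it is encoded in the nucleus, made in the cytosol and imported. The small subunit binds the messenger RNA and reads its codons, and the large subunit joins the amino acids and is held at the inner membrane, where the products are inserted. About as many of its proteins are specific to mitochondria as descend from bacterial ribosomal proteins. Muscle is rich in mitochondria, and inherited defects of single members cause heart muscle, brain or kidney disease in humans.

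The arrays show muscle. All 20 measured genes of a list of 22 muscle markers were tested, with means over the dogs between 12.8 and 16.4 on the log2 scale. Values of whole muscle RNA do not tell fewer cells of a type apart from less RNA per cell. Markers of fat, connective tissue and macrophages had mostly higher means in ad libitum dogs, none at an adjusted limma p under 0.05. The tested adipocyte markers had higher means in ad libitum dogs for 14 of 17 genes, the fibroblast and matrix markers for 17 of 17 and the macrophage markers for 10 of 10, of which 4, 9 and 4 had an unadjusted limma p under 0.05. Over all tested probe sets 48.4% had higher means, and 3.71% were higher at that p. Of 12 endothelial markers 6 had higher and 6 lower means, with 1 lower at an unadjusted limma p under 0.05. The mean log2 level of the fibroblast and matrix list ran from 7.42 to 11.1 in ad libitum dogs and from 7.20 to 8.47 in control dogs. That of the adipocyte list ran from 8.37 to 10.2 in ad libitum dogs and from 7.70 to 9.19 in control dogs, and that of the 10 tested macrophage genes from 5.59 to 8.63 in ad libitum dogs and from 5.42 to 6.26 in control dogs. None of these markers was listed at 0, but 7 of 17 macrophage markers (CD68, CSF1R, TYROBP, FCER1G, AIF1, MSR1 and ITGB2) did not pass the filter on low values.

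Transcripts of the mitochondrial ribosome were present in every dog and differed little between the groups. Of the 73 members, 72 had a log2 value above 4 on all 9 arrays and were tested, so none entered through 1 group alone. The exception was MRPL54, a large subunit protein specific to mitochondria, whose single probe set stood between 2.69 and 2.84 in ad libitum dogs and between 2.70 and 2.74 in control dogs. Mean values of the tested members ran from 6.35 to 13.2. These levels depend on each probe set and give no order among genes. No member passed an adjusted p of 0.05 (limma), and of all 18394 tested probe sets 0 did, a background of 0%. At an unadjusted p under 0.05 (limma), 0 members were called, 0 higher and 0 lower, where 5.91% of all tested probe sets were, 3.71% higher and 2.21% lower. The lowest unadjusted p of a member was 0.0709. The groups overlapped for all 72 members, and 1.44% of all tested probe sets had groups that did not overlap.

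The differences were also small. The absolute log2 difference of a member had a median of 0.0767, against 0.150 over all tested probe sets and 0.156 over those whose means lay in the members' range. For 40 of 72 members it was under 0.1. The 95% interval of 49 members lay inside a 1.5-fold change in either direction, which held for 46.6% of all tested probe sets. For the other 23 a larger difference remains within the interval, and the lowest lower bound was -1.18 (MRPS10) and the highest upper bound 0.73 (MRPL41). The median range of a member between its highest and lowest dog was 0.605 among ad libitum dogs and 0.458 among control dogs. Members also varied less within groups, with a median within-group SD of 0.236 against 0.307 over all tested probe sets. Each was read by its highest probe set, and their median level was 10.1, against 8.23 over the probe sets in their range.

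**Figure D1:**
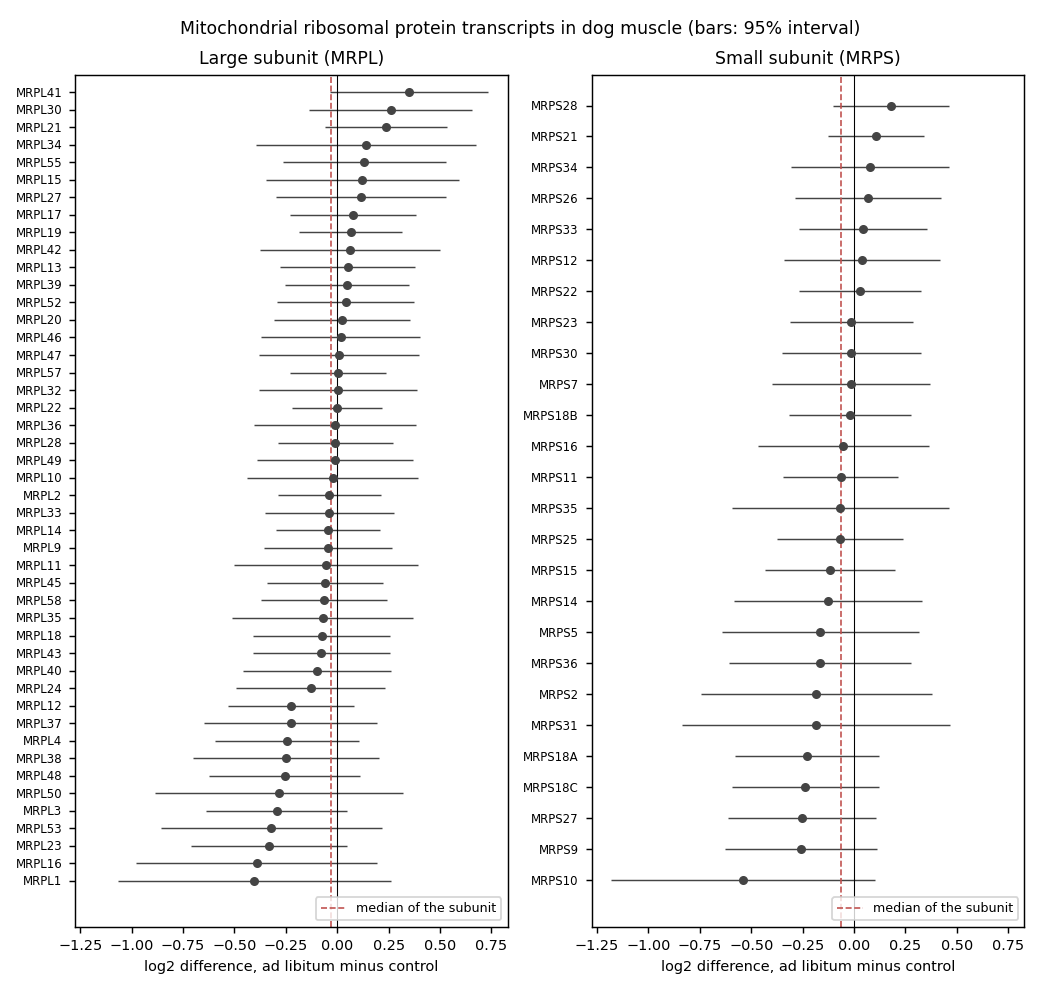
Log2 difference (ad libitum minus control, x axis) of the 46 tested MRPL genes and the 26 MRPS genes (rows), with 95% intervals from limma as bars and the subunit's median as a dashed line. Every interval spans 0, from MRPL41 at 0.35 to MRPS10 at -0.54.

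The large and the small subunit stood close together. The median log2 difference was -0.031 over the 46 large subunit members and -0.066 over the 26 small subunit members, 0.035 apart, beside -0.0082 over all tested probe sets. Means were lower in ad libitum dogs for 28 of 46 large and 19 of 26 small subunit members, and for 51.6% of all tested probe sets. The quartiles were -0.12 and 0.045 in the large subunit and -0.18 and 0.019 in the small subunit. MRPS18A and MRPS30 carry small subunit names, but ribosome structures place both proteins in the large subunit, and MRPS36 is now assigned to the 2-oxoglutarate dehydrogenase complex. With the first pair moved and MRPS36 left out, the medians were -0.031 for 48 large and -0.065 for 23 small subunit members. With the adipocyte markers' mean added to the model they were 0.025 for the large and 0.067 for the small subunit, so both changed sign and the small subunit stood above the large one. These markers themselves had higher means in ad libitum dogs for 14 of 17 genes, so this fit cannot tell feeding apart from the markers. Members with a bacterial counterpart (44) had a median of -0.041 and those specific to mitochondria (27 tested) had -0.013. This order did not hold in both subunits. Placed by structure, the medians were -0.031 and -0.036 in the large subunit, and -0.090 (14 genes) and -0.012 (9 genes) in the small one.

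Among the large subunit members with a bacterial counterpart, MRPL23, MRPL3 and MRPL4 had lower means in ad libitum dogs. MRPL23, a protein next to the exit of the peptide tunnel, stood at 11.58, 10.79, 11.10, 11.00 and 11.01 in ad libitum dogs 2, 5, 6, 7 and 8, and at 11.20, 11.46, 11.64 and 11.41 in control dogs 1, 3, 4 and 9. Ad libitum dog 2 lay among the controls and the other 4 ad libitum dogs lay below all of them. The log2 difference was -0.33 (SE 0.17, limma adjusted p = 0.796), and without dog 2 it was -0.45 (limma adjusted p = 0.843). Without ad libitum dog 5 it was -0.25. MRPL3, near the peptidyl transferase centre and mutated in a human mitochondrial cardiomyopathy, stood at 11.54, 11.59, 11.92, 12.22 and 11.97 in ad libitum dogs, and at 12.21, 12.04, 12.12 and 12.20 in control dogs. Ad libitum dog 7 lay above all controls and the other 4 ad libitum dogs below all of them. The difference of MRPL3 was -0.29 (SE 0.15, limma adjusted p = 0.796). MRPL4 averaged 9.87 ± 0.26 across the 5 ad libitum dogs and 10.1 ± 0.16 across the 4 controls (± SD), with 3 ad libitum dogs below all controls.

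The stalk of the large subunit recruits translation factors. MRPL12, which forms it and also binds the mitochondrial RNA polymerase, stood at 11.50, 11.19, 11.10, 11.64 and 11.14 in ad libitum dogs, and at 11.50, 11.52, 11.54 and 11.59 in control dogs. The 4 control dogs lay within 0.0914 of each other, while ad libitum dogs 5, 6 and 8 lay below them and dog 7 above. The log2 difference was -0.22 (SE 0.14, limma adjusted p = 0.799). MRPL10, which anchors the stalk, averaged 8.65 ± 0.23 across the 5 ad libitum dogs and 8.67 ± 0.34 across the 4 controls (± SD), differing by -0.023.

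MRPL21, MRPL30 and MRPL27, also with bacterial counterparts, had higher means in ad libitum dogs. MRPL21 stood at 10.98, 10.67, 10.91, 10.92 and 10.83 in ad libitum dogs and at 10.33, 10.86, 10.61 and 10.71 in control dogs. All 5 ad libitum dogs lay above the control mean and 3 above every control. The difference of MRPL21 was 0.24 (SE 0.13, limma adjusted p = 0.796), that of MRPL30 was 0.26 (SE 0.18) and that of MRPL27 was 0.12 (SE 0.18). MRPL1, part of a mobile arm of the subunit, and MRPL16 had the lowest means relative to control in the large subunit, -0.40 (SE 0.30) and -0.39 (SE 0.26), with standard errors near the difference. MRPL1 stood at 8.08 in ad libitum dog 2 and 9.73 in ad libitum dog 7, and the controls lay between 9.10 and 9.74. These 2 were picked after their values were seen.

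Of the large subunit members specific to mitochondria, MRPL41 had the lowest p of all 72. It stood at 7.07, 6.42, 6.31, 6.44 and 6.64 in ad libitum dogs, and at 5.98, 6.29, 6.43 and 6.21 in control dogs. Dogs 2, 7 and 8 lay above all controls, dogs 5 and 6 within their range, and dog 2 was the highest of all dogs. The log2 difference was 0.35 (SE 0.17, limma adjusted p = 0.796). MRPL48 averaged 10.6 ± 0.22 across the 5 ad libitum dogs and 10.8 ± 0.26 across the 4 controls (± SD), differing by -0.26 (SE 0.16), with all 5 ad libitum dogs below the control mean. Control dog 3 lay below 4 of the ad libitum dogs at 10.46, and without it the difference was -0.39 (limma adjusted p = 0.951). Without ad libitum dog 8 the difference of MRPL48 was -0.17, and its other probe set gave -0.089 (SE 0.18) with all dogs. MRPL55 differed by 0.13 (SE 0.18). MRPL45, which tethers the ribosome to the inner membrane, differed by -0.059 (SE 0.13), and MRPL58, which frees peptides from stalled ribosomes, by -0.062 (SE 0.14). The interval of MRPL45 ran from -0.34 to 0.22.

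**Figure D2:**
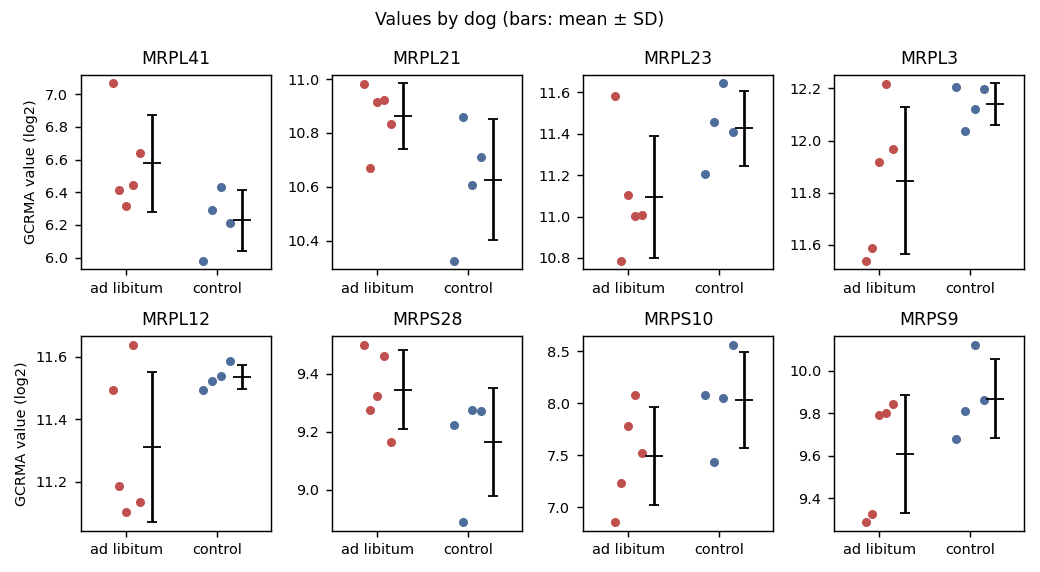
GCRMA values (log2, y axis, a separate scale per panel) of 8 members by dog, ad libitum left and control right, with mean ± SD as bars (n = 5 and 4). The groups overlap in every panel, and MRPL12 spans 11.1 to 11.6 in ad libitum dogs but 11.5 to 11.6 in control dogs.

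In the small subunit MRPS10 had the largest difference of all tested members. This counterpart of a bacterial ribosomal protein stood at 6.86, 7.23, 7.78, 8.08 and 7.52 in ad libitum dogs, and at 8.08, 7.44, 8.05 and 8.57 in control dogs. Ad libitum dogs 2 and 5 lay below all controls and control dog 9 above all others. The log2 difference was -0.54 (SE 0.29, limma adjusted p = 0.796). MRPS9, on the head of the subunit in bacteria, stood at 9.29, 9.32, 9.79, 9.80 and 9.84 in ad libitum dogs, and at 9.68, 9.81, 10.12 and 9.86 in control dogs. Dogs 2 and 5 were again the low ones, and all 5 ad libitum dogs lay below the control mean. MRPS9 differed by -0.26 (SE 0.16, limma adjusted p = 0.806) and MRPS27, a pentatricopeptide repeat protein, by -0.25 (SE 0.16, limma adjusted p = 0.806).

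MRPS28 led the small subunit members with higher means. It stood at 9.50, 9.28, 9.32, 9.46 and 9.16 in ad libitum dogs, and at 9.22, 8.89, 9.28 and 9.27 in control dogs. Ad libitum dogs 2, 6 and 7 lay above every control, and control dog 3 was the lowest of all dogs. The log2 difference was 0.18 (SE 0.13, limma adjusted p = 0.821). MRPS21 differed by 0.11 (SE 0.10), MRPS34 by 0.078 (SE 0.17), MRPS26 by 0.067 (SE 0.16) and MRPS33 by 0.043 (SE 0.14). MRPS16 and MRPS22 are, like MRPL3, mutated in human mitochondrial disease. MRPS16 differed by -0.053 (SE 0.18), with an interval from -0.47 to 0.36, and MRPS22 by 0.029 (SE 0.13), with an interval from -0.27 to 0.33. The other tested probe sets of MRPS16 gave -0.23 (SE 0.21) and -0.35 (SE 0.24).

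The 3 MRPS18 genes encode relatives of the same bacterial protein that occupy different places in the ribosome. MRPS18A averaged 11.3 ± 0.27 across the 5 ad libitum dogs and 11.5 ± 0.16 across the 4 controls (± SD), differing by -0.23 (SE 0.16, limma adjusted p = 0.817). MRPS18C averaged 8.19 ± 0.16 in ad libitum and 8.43 ± 0.30 in control dogs, a difference of -0.24 (SE 0.16, limma adjusted p = 0.814). MRPS18B averaged 11.6 ± 0.20 in ad libitum and 11.6 ± 0.13 in control dogs, a difference of -0.018 (SE 0.13). In ad libitum dogs 5, 6 and 8 MRPS18A was below every control, and dogs 2 and 7 lay within the control range. MRPS36 differed by -0.17 (SE 0.20), with ad libitum dogs between 10.7 and 11.8 and control dogs between 11.3 and 11.5.

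Most dogs had a similar position in both subunits. For each member the deviation of a dog from the midpoint of the 2 group means was taken, and its median over members gives the dog's position. Over the 46 large subunit members it was 0.19, -0.15, -0.078, 0.099 and -0.16 in ad libitum dogs 2, 5, 6, 7 and 8, and -0.076, -0.022, 0.13 and 0.036 in control dogs 1, 3, 4 and 9. Over the 26 small subunit members it was 0.12, -0.18, -0.087, 0.17 and -0.11 in ad libitum dogs, and -0.043, 0.0021, 0.085 and 0.051 in control dogs. Thus dogs 2, 7, 4 and 9 were above 0 and dogs 5, 6, 8 and 1 below it in both subunits. The spread of these positions was 0.16 (large) and 0.15 (small) as SD over ad libitum dogs and 0.089 and 0.056 over control dogs. The mean position for the large subunit was -0.018 in ad libitum and 0.017 in control dogs, and for the small subunit -0.018 in ad libitum and 0.024 in control dogs.

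Counted by gene, the same dogs led. Ad libitum dogs 2 and 7 and control dog 4 held the highest value of 58 of the 72 members, 21, 17 and 20 of them each. Ad libitum dogs 5, 6 and 8 held the lowest value of 44 members, 20, 11 and 13 each, and control dogs 4 and 9 the lowest of none. How often each dog was highest or lowest over all tested probe sets was not counted, so these counts may not be particular to the members. Of the large subunit members, 36, 8, 17, 37 and 9 of 46 lay above their midpoint in ad libitum dogs 2, 5, 6, 7 and 8, and 15, 17, 34 and 28 in control dogs 1, 3, 4 and 9. The median deviation over all 18394 tested probe sets lay between -0.054 and 0.026 in ad libitum dogs and between -0.022 and 0.011 in control dogs, but normalisation holds it near 0. Limma's array weights, lower for arrays further from the fit, were 0.56, 1.15, 1.49, 0.63 and 0.77 in ad libitum dogs 2, 5, 6, 7 and 8. In control dogs 1, 3, 4 and 9 they were 1.41, 0.63, 1.19 and 2.03. The part of array quality in the members' positions was not tested.

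**Figure D3:**
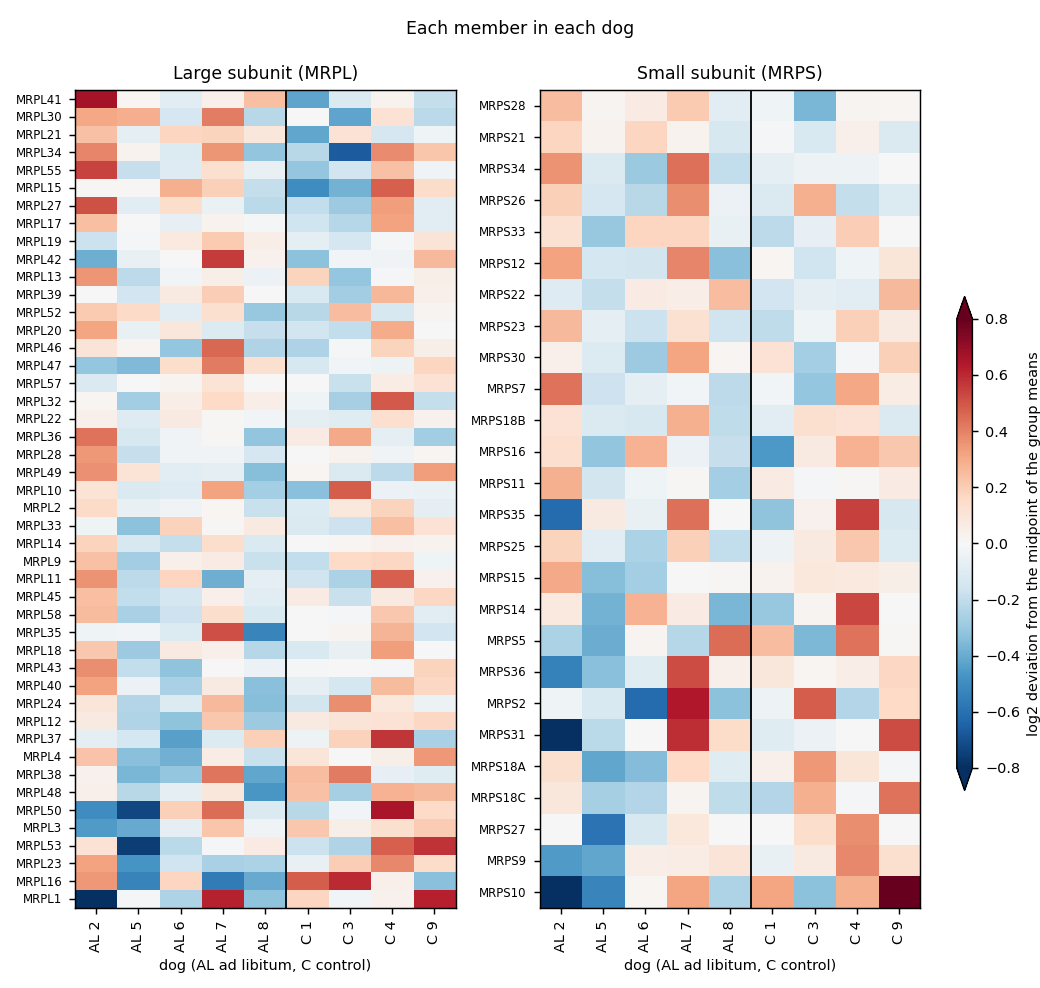
Deviation of each tested member (rows) from the midpoint of its group means in each dog (columns, ad libitum left of the line, control right), on the log2 scale, red above and blue below. Ad libitum dogs 5 and 8 are mostly blue and ad libitum dogs 2 and 7 and control dog 4 mostly red, and ad libitum dog 2 is dark blue for MRPL1, MRPS10 and MRPS31.

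Ad libitum dog 2 split the members. It held the highest value of 21 members, among them MRPL41, MRPL55, MRPL36 and MRPS7, and the lowest of 9. Those 9 were MRPL1, MRPL3, MRPL19, MRPL42, MRPS9, MRPS10, MRPS31, MRPS35 and MRPS36. MRPS31 gave an example. It stood at 9.66, 10.43, 10.63, 11.23 and 10.79 in ad libitum dogs, and at 10.54, 10.59, 10.63 and 11.16 in control dogs. For 5 of the 9 members ad libitum dog 7 was the highest of all dogs. Both lists of dog 2 were drawn from the values and carry no test.

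In some members the control dogs were closely alike. The SD was larger in ad libitum than in control dogs for 49 of 72 members (68.1%), against 61.0% of all tested probe sets. MRPL14 had an SD of 0.170 (n = 5) in ad libitum and 0.0146 (n = 4) in control dogs, and MRPS15 had 0.256 in ad libitum and 0.0275 in control dogs. MRPL28 had 0.207 in ad libitum and 0.0247 in control dogs, and MRPS34 had 0.338 in ad libitum and 0.0339 in control dogs. Other members went the other way. MRPL15 had 0.183 in ad libitum and 0.456 in control dogs, and MRPL17 had 0.118 in ad libitum and 0.247 in control dogs. All these genes were picked after their values were seen. GCRMA gave 2 or more dogs exactly the same value for 11 of 72 members, and for 25.3% of all tested probe sets.

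The positions of the dogs can be set beside those of other gene groups. Complex I subunits (33 genes), whose mitochondrially encoded partners this ribosome makes, had medians of 0.13, -0.033, -0.041, 0.11 and -0.099 in ad libitum dogs, and -0.060, -0.23, 0.062 and 0.091 in control dogs. Control dog 3 was the lowest of all dogs for complex I, a list added after values were known, and close to 0 for the ribosome. Ad libitum dog 2, at 0.19 for the large subunit, stood at -0.070 for mitochondrial translation factors and at -0.18 for the mitochondrial transcription and RNA stability list. Control dog 3, at -0.022 for the large subunit, stood at 0.18 for the ribosome assembly list. Cytosolic ribosomal proteins (51 tested RPL and RPS genes) had medians of 0.094, -0.061, -0.022, -0.17 and 0.084 in ad libitum dogs, and 0.035, 0.011, 0.015 and 0.029 in control dogs. Ad libitum dogs 7 and 8 and control dogs 1 and 3 stood on opposite sides of 0 for the cytosolic ribosome and the large mitochondrial subunit. The median log2 difference between the groups was 0.031 for complex I, with 23 of 33 genes higher, and -0.048 for cytosolic ribosomal proteins, with 36 of 51 lower, of which 0 and 1 had an unadjusted limma p under 0.05. Over all tested probe sets 48.4% had higher and 51.6% lower means, and 5.91% had an unadjusted limma p under 0.05. All these gene groups were read on the same 9 arrays.

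**Figure D4:**
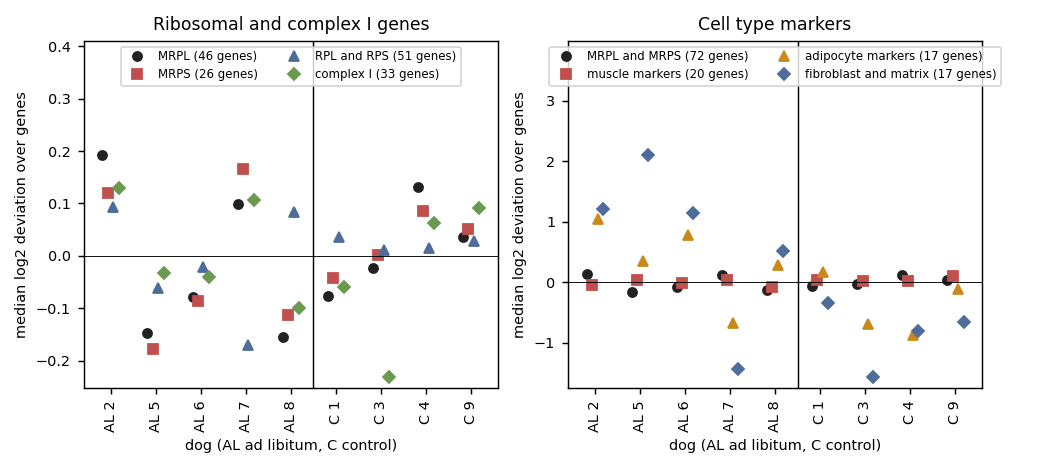
Median log2 deviation over the genes of a group (y axis) in each dog (x axis, ad libitum left of the line, control right), for ribosomal and complex I genes on the left and cell type markers on the right. MRPL and MRPS lie together in each dog, within 0.2 of 0, while fibroblast and matrix markers run from -1.56 to 2.11.

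Cell type markers varied across the same dogs on a larger scale. The fibroblast and matrix list had median deviations of 1.20, 2.11, 1.15, -1.44 and 0.52 in ad libitum dogs, and -0.35, -1.56, -0.81 and -0.66 in control dogs. Dog 5 was the highest for these markers and low for the ribosome, and dog 7 was low for them and high for the ribosome, while dog 2 was above 0 for both. The median over the 20 muscle markers stayed between -0.082 and 0.045 in ad libitum dogs and between 0.018 and 0.10 in control dogs. Single muscle markers differed more, from -1.06 to 0.17 between the groups, with 7 higher and 13 lower in ad libitum dogs. None of them had an unadjusted limma p under 0.05. The part of these cells in the members' values was not tested beyond the fit with the adipocyte covariate, in which 1 member, MRPS35, was higher at an unadjusted limma p under 0.05 (log2 difference 0.46), beside 1.44% of all tested probe sets.

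Other parts of mitochondrial gene expression also had more genes lower than higher in ad libitum dogs, where 51.6% of all tested probe sets were lower. Of the 5 measured mitoribosome subunits that carry other names, 0 were higher and 5 lower, with a median log2 difference of -0.11. They were led by GADD45GIP1, at the tunnel exit, with -0.19 (SE 0.16), and AURKAIP1, of the small subunit, with -0.11 (SE 0.12). Of 22 tested genes for ribosome assembly, rRNA modification and membrane docking, 5 were higher and 17 lower, with a median of -0.075. NOA1, a GTPase needed for the small subunit, differed by -0.45 (SE 0.23) at a level near the filter, 4.36 in ad libitum and 4.81 in control dogs. MRM3, an rRNA methyltransferase of the large subunit, differed by -0.32 (SE 0.17), LETM1 of the inner membrane by 0.16 (SE 0.11) and FASTKD2, an RNA-binding assembly factor, by 0.12 (SE 0.18). None of the genes in these 2 lists had an unadjusted limma p under 0.05.

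Translation factors also had more lower than higher means. Of 13 tested, 2 were higher and 11 lower, with a median of -0.13 and none at an unadjusted limma p under 0.05. TACO1, the translational activator of cytochrome c oxidase subunit I, differed by -0.45 (SE 0.27) and TUFM, the elongation factor that delivers charged tRNA, by -0.16 (SE 0.14). C26H12orf65, a release factor relative, differed by 0.12 (SE 0.14), and MTFMT, which formylates the initiator tRNA, by 0.0093 (SE 0.19). Of 15 genes for transcription and RNA stability in mitochondria, 2 were higher and 13 lower, with a median of -0.20. The median absolute log2 difference of this list was 0.204, against 0.150 over all tested probe sets, and 0 had an unadjusted limma p under 0.05. MTPAP, the mitochondrial poly(A) polymerase, averaged 6.15 ± 0.36 across the 5 ad libitum dogs and 6.56 ± 0.14 across the 4 controls (± SD). All ad libitum dogs lay below all controls, the highest at 6.40 and the lowest control at 6.47. Groups did not overlap for 1.44% of all tested probe sets. The log2 difference of MTPAP was -0.41 (SE 0.19, limma adjusted p = 0.796). FASTKD3 differed by -0.39 (SE 0.20), PRORP, which cuts tRNA 5′ ends, by 0.049 (SE 0.12) and ELAC2, which cuts their 3′ ends, by 0.029 (SE 0.11).

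Of 10 regulators of nuclear genes for mitochondria, 7 were tested, with 2 higher and 5 lower and a median of -0.23. The median absolute log2 difference of these 7 was 0.225, against 0.150 over all tested probe sets. NRF1, GABPB1 and ESRRG stood below the filter in both groups. MYC averaged 4.18 ± 0.73 across the 5 ad libitum dogs and 5.59 ± 1.09 across the 4 controls (± SD), differing by -1.41 (SE 0.53, limma adjusted p = 0.796). It was the one gene of this list past an unadjusted limma p of 0.05, beside 2.21% of all tested probe sets lower at that p. Its level was near the filter, between 2.88 and 4.57 in ad libitum dogs. Control dogs 3 and 4 stood at 4.84 and 4.54, and control dogs 1 and 9 at 6.13 and 6.86. The coactivator PPARGC1A differed by -0.28 (SE 0.19), the receptor ESRRA by 0.10 (SE 0.13) and YY1 by 0.059 (SE 0.17).

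Different probe sets of a member mostly gave the same sign. Of 55 members with several tested probe sets, 30 had all differences below 0, 12 had all above 0, and 13 had both signs. The 13 were MRPL19, MRPL22, MRPL28, MRPL35, MRPL36, MRPL42, MRPL47, MRPL57, MRPL58, MRPS7, MRPS12, MRPS18B and MRPS33, and their widest gap was 0.404, in MRPL47 (0.0080 and -0.40). The array's naming marks 36 of the 72 chosen probe sets as shared by several transcripts and that of MRPS33 as prone to hybridise with others, so those values may not be of these genes alone.

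MRPS30 was the exception in size, picked after its values were seen. Its chosen probe set stood at 9.57, 9.42, 9.23, 9.84 and 9.54 in ad libitum dogs, and at 9.64, 9.25, 9.52 and 9.72 in control dogs. The log2 difference of these values was -0.013 (SE 0.15). A second one gave -0.095 (SE 0.14). The remaining one stood at 6.92, 3.50, 8.13, 3.06 and 7.98 in ad libitum dogs, and at 8.82, 7.72, 8.18 and 7.87 in control dogs, a difference of -2.23 (SE 1.10, limma adjusted p = 0.796). Ad libitum dogs 5 and 7 alone were below the filter level there. By the other 2 probe sets dog 7 was the highest of all dogs, and dog 5 was the lowest of all by the second. What sets the remaining probe set apart was not tested.

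**Figure D5:**
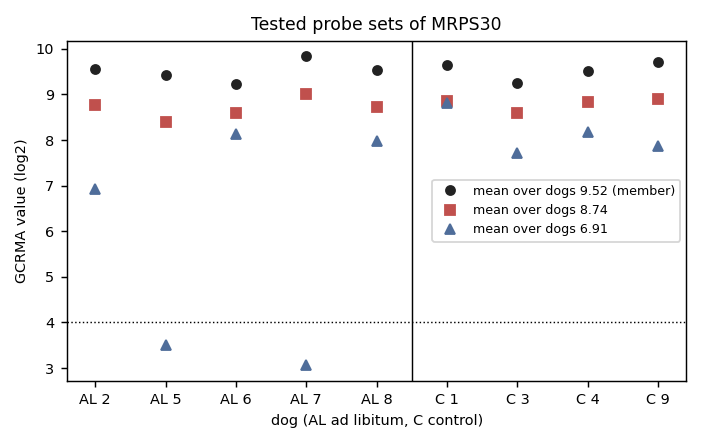
GCRMA values (log2, y axis) of the 3 tested probe sets of MRPS30 in each dog (x axis, ad libitum left of the line, control right), with the filter level of 4 dotted. The lowest set drops to 3.50 and 3.06 in ad libitum dogs 5 and 7, and the other 2 sets stay between 8.40 and 9.84.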

How the data were processed

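Total RNA of each muscle was labelled as biotin cRNA and hybridised to 1 Affymetrix canine array per dog, per the labels' protocols. The deposited values are GCRMA values made by the authors, per the submitters' processing notes, and no version is given in the sources used here. Their log base is not stated. They were taken as log2 from the range of the deposited values (0.652 to 16.6). GCRMA removes an estimate of non-specific binding and compresses low values, and the number of arrays limits the precision.

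After 111 control probe sets were left out, 18394 probe sets that exceeded a log2 value of 4 on 4 or more of 9 arrays were kept. Groups were compared by limma's moderated test (version 3.58.1, under R 4.3.3, two-sided, 7 residual degrees of freedom), with Benjamini-Hochberg adjustment over all tested probe sets. Only the limma step was tested on simulated data. Array pairs correlated at 0.976 to 0.994 and 0 were identical. Gene names come from the platform annotation, and Entrez IDs of 67 members matched the RefSeq table of UU_Cfam_GSD_1.0 with 0 symbols changed. MRPL44, MRPL51, MRPS6, MRPS17 and MRPS24 were not analysed here. Named members are the 5 with the lowest p in each direction of each subunit, any whose groups do not overlap or that failed the filter, those whose probe sets differ in sign, and a set of known roles (the MRPS18 genes, MRPL3, MRPL10, MRPL12, MRPL45, MRPS16, MRPS22 and MRPS36). From each other list the 2 with the lowest p in each direction are named. MRPL1, MRPL14, MRPL16, MRPL38, MRPL50, MRPL53, MRPS15, MRPS30, MRPS31 and MRPS35 were added once their values were known, as was the complex I list. Members, lists and tests were chosen with earlier results of these data known. Alternatives were other filters and scalings, array weights, an adipocyte covariate, other probe sets and leaving out each dog.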

Additional observations from a re-analysis of the deposited data

Results flagged for a closer look

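In 11 genes named here 1 dog stood apart from the others of its group by Dixon's 95% criterion, which chance passes in about 1 in 20 groups. Over all tested members 7 of 144 group tests did so, where chance gives 7.2, 1 of them in the ad libitum and 6 in the control group. Ad libitum dog 2 stood apart in MRPS7, at 10.8, in NOA1, at 3.64, and in PRORP, at 4.89. Ad libitum dog 7 stood apart in MYC, at 2.88. Control dog 3 stood apart in MRPL48, at 10.5, in MRPS26, at 10.9, in MRPS28, at 8.89, and in LETM1, at 5.38. Control dog 9 stood apart in MRPS22, at 7.89, in MRPS31, at 11.2, and in MTPAP, at 6.77.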

How the results depend on the processing

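No paired analysis was possible because the animal numbers are not shared between the groups. No alternative gave a member an adjusted p under 0.05 (limma), and the lowest was 0.319 (MRPL3 without ad libitum dog 7). The count of members lower at an unadjusted limma p under 0.05 was 6 with array weights (MRPL3, MRPL4, MRPL12, MRPL23, MRPL48 and MRPS10, beside 4.09% of all tested probe sets) and 0 to 5 on leaving out each dog. It was 5 without ad libitum dog 7 (MRPL1, MRPL3, MRPL12, MRPL38 and MRPS10, beside 3.61%), 2 without ad libitum dog 2 (MRPL4 and MRPL23, beside 2.12%), 2 without control dog 3 (MRPL48 and MRPS10, beside 2.05%) and 1 without control dog 1 (MRPS18C, beside 2.52%). The count higher was 1 with the adipocyte covariate (MRPS35, beside 1.44%) and 0 to 1 on leaving out each dog (MRPL41 without ad libitum dog 6, beside 3.02%, MRPL21 without control dog 3, beside 2.43%). With the adipocyte covariate the small subunit median was 0.067 and the large minus small difference -0.043. Leaving out each dog gave -0.088 to 0.0041 for the large subunit median, -0.11 to -0.00064 for the small one and -0.0022 to 0.045 for their difference. The cause of these changes was not tested. Of 1361 results for single genes 1241 kept their sign and side, and 120 in 28 genes changed sign. Log2 differences that changed sign with the setting adipocyte covariate were 0.0291 (MRPL22), 0.202 (MRPL35), 0.0200 (MRPL58), 0.139 (MRPS18B), 0.189 (MRPL10), 0.0488 (MRPS16), 0.152 (MRPS36), 0.21 (MRPL50), 0.053 (MRPS30), 0.236 (MRPS31), 0.456 (MRPS35). Log2 differences that changed sign with the setting array weights were -0.0185 (MRPS34), 0.0306 (MRPL36), -0.0235 (MRPL47), -0.0285 (MRPL57), -0.0615 (MRPS12), 0.0134 (MRPL10), -0.0211 (MRPS22), -0.0345 (MTFMT), -0.0218 (YY1). Log2 differences that changed sign with the setting cyclic loess were -0.00121 (MRPL47), -0.00597 (MRPL57), -0.000226 (MTFMT). Log2 differences that changed sign with the setting mean over tested probe sets of a gene were -0.013 (MRPS33), -0.0386 (MRPL19), 0.0765 (MRPL22), 0.028 (MRPL28), 0.0222 (MRPL35), 0.0151 (MRPL36), -0.0114 (MRPL42), -0.194 (MRPL47), -0.0706 (MRPL57), 0.0315 (MRPL58), 0.0323 (MRPS7), -0.0913 (ELAC2). Log2 differences that changed sign with the setting median centring were -0.0343 (MRPL47), -0.038 (MRPL57), -0.00484 (MRPS12), -0.0128 (MRPS22), -0.0135 (ELAC2), -0.033 (MTFMT). Log2 differences that changed sign with the setting next probe set of a gene were -0.0194 (MRPS33), -0.0467 (MRPL19), 0.155 (MRPL22), 0.0401 (MRPL28), 0.115 (MRPL35), 0.0397 (MRPL36), -0.00101 (MRPL42), -0.396 (MRPL47), -0.145 (MRPL57), 0.0204 (MRPL58), -0.0298 (MRPS12), 0.0794 (MRPS7), -0.211 (ELAC2), -0.0176 (FASTKD2), 0.00885 (AURKAIP1). Leaving out each dog gave a range that spans 0 for MRPS34 (-0.0219 to 0.163), MRPS26 (-0.0172 to 0.172), MRPS33 (-0.0203 to 0.124), MRPL22 (-0.0346 to 0.0436), MRPL28 (-0.0971 to 0.0351), MRPL35 (-0.208 to 0.0533), MRPL36 (-0.12 to 0.0907), MRPL42 (-0.072 to 0.166), MRPL47 (-0.0945 to 0.0978), MRPL57 (-0.0553 to 0.0433), MRPS12 (-0.0561 to 0.126), MRPS18B (-0.091 to 0.0302), MRPS7 (-0.125 to 0.0856), MRPL10 (-0.139 to 0.134), MRPS16 (-0.214 to 0.0318), MRPS22 (-0.0291 to 0.122), MRPS30 (-0.106 to 0.0586), MRPS31 (-0.356 to 0.0375), MRPS35 (-0.185 to 0.105), ELAC2 (-0.0271 to 0.0684), MTFMT (-0.0811 to 0.145), YY1 (-0.0148 to 0.151).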
